A study of Drosophila melanogaster with 2 samples.

Results

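The translation initiation factor genes of Drosophila melanogaster were taken as the protein-coding genes whose symbol starts with eIF in the Ensembl annotation, which gave 44 of 13968 protein-coding genes. The rule used symbols and no measured value. Initiation factors bring the small ribosomal subunit, the initiator tRNA and the mRNA together at the start codon. eIF2 carries the initiator tRNA, eIF2B recharges eIF2 with GTP, eIF3 is the large scaffold on the small subunit, the eIF4 factors bind and unwind the capped end of the mRNA, eIF5 triggers GTP hydrolysis by eIF2, eIF5B joins the subunits and eIF6 keeps the large subunit apart until it is ready. They are known as broadly used genes of growing cells, and the regulation of eIF2B and of cap binding is a well-known control point of protein synthesis.

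Binding was measured by ChIP-seq of dimm (dimmed), a basic helix-loop-helix transcription factor known from peptide-secreting neuroendocrine cells. Transgenic flies of the strain dimm-GFP carried dimm fused to eGFP, and chromatin of whole embryos aged 0 to 24 hours was precipitated through the GFP tag. All samples form 1 group with 2 biological replicates, and both carry the transgene. All embryonic tissues were mixed, the sex was not collected, and the labels do not say from which promoter or in which cells the fusion was made. No untagged or input sample was used here, so whether a region depends on dimm was not tested. The files hold peaks and not reads, so the depth of the libraries is unknown.

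A gene was counted as bound when a peak summit lay in its annotated span or in the 1 kb upstream of its start. The main list was the conservative list of both replicates, with 1739 merged regions at an irreproducible discovery rate (IDR) of at most 0.01. Each replicate also had its own thresholded list, with 1176 and 1114 regions. Longer ranked lists held weaker candidates, 139701 of them for both replicates together. The signal of a peak is the authors' value with no stated normalization. It was read only within a list, so values of both replicates together and of a single replicate are not on the same scale. For a gene without a listed region, a replicate's value is that of its own strongest candidate, which can lie elsewhere in the gene. With 1 group of 2 samples no test over samples can be made, and the values of the eIF genes stand beside those of all protein-coding genes.

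The stretches of sequence printed here show what lay under the summits that the results turn on. They are on the plus strand of the Release 6 genome (dm6 coordinates), limited to bases outside annotated untranslated exons, with matches to the searched motifs in capitals. The motifs marked here are TATCGATA (the DNA replication-related element, DRE), CGATA (a part of it), CATATG (an E-box) and TATAAA, each sought on both strands. A CGATA match can lie inside a DRE match.
eIF2Bbeta upstream region, chrX:2703853-2704028, shown as the strongest region of the whole list: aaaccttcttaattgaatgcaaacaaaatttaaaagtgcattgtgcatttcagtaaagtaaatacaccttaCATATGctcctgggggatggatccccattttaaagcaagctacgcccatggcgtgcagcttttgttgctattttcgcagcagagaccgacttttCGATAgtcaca
eIF3a start, chr3R:4433896-4433947, shown as the region at an eIF gene with a DRE within 50 bp of its summit: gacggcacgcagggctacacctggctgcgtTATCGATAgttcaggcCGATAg
eIF5B intron, chr3L:3432790-3432890, shown as the strongest region inside a member: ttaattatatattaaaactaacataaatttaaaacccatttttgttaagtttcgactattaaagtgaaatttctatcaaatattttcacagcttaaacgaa
eIF4EHP upstream candidate, chr3R:24109159-24109259, shown as a strong candidate that no thresholded list holds: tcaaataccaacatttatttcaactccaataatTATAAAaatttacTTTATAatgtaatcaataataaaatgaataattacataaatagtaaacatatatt

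Of the 44 eIF genes, 6 were bound in the conservative list (13.6%, 95% Wilson interval 6.4 to 26.7%, counting error only), against 11.2% of all protein-coding genes. The bound genes were eIF2Bbeta, eIF3a, eIF3h, eIF4EHP, eIF5B and eIF6, and together they held 8 regions. The share was near the background, so the count says nothing particular of the family. Replicate 1's own list bound 4 eIF genes (9.09%, against 8.21% of all genes), and replicate 2's bound 4 (9.09%, against 7.80%). These were the same 4 genes, eIF2Bbeta, eIF4EHP, eIF5B and eIF6, and 6.16% of all genes were bound in both replicates' own lists. In the list of both replicates that is not marked conservative 7 were bound (15.9%, against 11.6%). That list gained eIF1 and eIF2D and lost eIF3h. The conservative count fell from 6 to 3 when upstream sequence was left out, at an IDR of at most 0.001, or when a summit counted only for the gene with the nearest start. Under these settings the share of eIF genes was 6.82%, and that of all genes was 5.78%, 5.63% and 7.64%, so the share fell among all genes too.

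**Figure D1:**
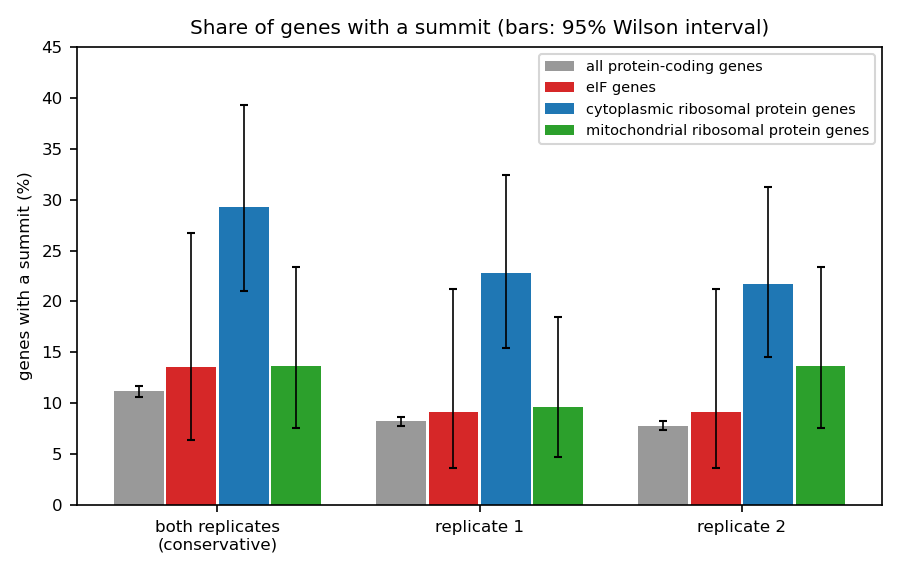
Share of genes with a summit (percent, y axis) in the conservative list and in each replicate's own list, for all protein-coding genes, the eIF genes and the ribosomal protein genes named by symbol; error bars are 95% Wilson intervals. The eIF genes sit at 13.6%, 9.09% and 9.09%, close to all genes at 11.2%, 8.21% and 7.80%, while the cytoplasmic ribosomal protein genes sit at 29.3% in the conservative list.

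The cytoplasmic ribosomal protein genes, taken as symbols starting RpL or RpS, had 27 of 92 bound in the same list (29.3%, Wilson interval 21.0 to 39.3%), and the mitochondrial ones, mRpL and mRpS, had 10 of 73 (13.7%, 7.61 to 23.4%). The difference between these families and the eIF genes was not tested. By the narrower rule of a summit within 500 bp of a gene's own transcription start site (TSS), 4 of the 44 eIF genes were bound (9.09%, interval 3.59 to 21.2%), against 6.92% of all genes. These were eIF3a, eIF3h, eIF5B and eIF6. In each replicate's own list 2 eIF genes met that rule, eIF5B and eIF6 (4.55%), against 5.26% of all genes in replicate 1 and 4.93% in replicate 2. The eIF share was slightly above the background in the conservative list and slightly below it in the replicates. With so few genes this gives no direction, and the interval of 3.59 to 21.2% in the conservative list covers 6.92%. All 27 cytoplasmic ribosomal protein genes bound in the conservative list met that rule there.

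The strongest bound region of the eIF genes lay upstream of eIF2Bbeta (FBgn0024996, X, 2704571 to 2706217, plus strand), which encodes the beta subunit of the exchange factor of eIF2. It spanned 2703756 to 2704028 on X and ranked 1 in the conservative list with a signal of 926. Replicate 1's own list had it at 469 (rank 2) and replicate 2's at 466 (rank 1). The replicates' summits lay at 2703885 and 2703895, and the peaks overlapped. The summit was 676 bp upstream of the TSS of eIF2Bbeta and 43 bp from that of Ugalt, a transporter gene of UDP-galactose that runs the other way, so the region lies nearer to Ugalt, and eIF2Bbeta lost it when the window was 500 bp upstream or less. The printed stretch holds a CATATG, which no other region at an eIF gene held within 50 bp of its summit and which 3.91% of all conservative regions held there. The other 4 subunit genes of eIF2B had no region in any thresholded list. The strongest of the ranked candidates, for both replicates together, was 45.2 at eIF2Bdelta, with 22.5 in replicate 1 and 19.2 in replicate 2. It was 20.3 at eIF2Bgamma and 18.4 at eIF2Bepsilon, the latter with 12.7 and 13.9 in the replicates. At eIF2Balpha it was 17.3, with 19.4 and 7.84.

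The region at eIF6 (FBgn0034915, 2R, 23849246 to 23850301, minus strand), the gene of the factor that holds back the large ribosomal subunit, had the next highest signal of the bound regions. It lay from 23850334 to 23850492 and had a signal of 322 (rank 78), with 167 in replicate 1's own list (rank 72) and 161 in replicate 2's (rank 80). Its summit was 105 bp upstream of the single TSS of eIF6. The region was 159 bp wide, whereas 86.8% of the merged conservative regions were 304 bp wide, the width of the widest single peak. The same summit lies inside ytr, a gene on the same strand that spans eIF6, and 76 bp from the start of the antisense RNA asRNA:CR45928, so the region cannot be given to eIF6 alone.

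eIF5B (FBgn0026259, 3L, 3428658 to 3460977, minus strand), the gene of the factor that joins the ribosomal subunits, was the 1 member with more than a single conservative region. The strongest of its 3 regions, at 3432688 to 3432991, had a signal of 165 (rank 302). It lay in an intron 27763 bp downstream of the nearest TSS of eIF5B. The nearest start of any gene to its summit was that of sty, at 7905 bp. In that region replicate 1 had 79.6 and replicate 2 had 81.4. The second region, 3460512 to 3461014, reached 101.3 and peaked 61 bp upstream of the inner of the gene's 2 starts. It stood at 63.1 in replicate 1, 177 bp from that start, and at 44.7 in replicate 2, 64 bp from it. That region is shared with armi, a gene of RNA silencing, and with CG46463. The start of CG46463 lies on the other strand, 338 bp from the outer start of eIF5B. The third region, in an intron 5467 bp from the nearest start, had 68.6 in the conservative list and was in neither replicate's own list. The printed stretch at the strongest summit has 19.8% G and C and no match to any of the 9 motifs searched.

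eIF4EHP (FBgn0053100, 3R, 24063077 to 24108960, minus strand), which encodes a cap-binding protein that represses translation, had a listed region deep in the gene and a stronger candidate outside all thresholded lists. The listed region, 24099072 to 24099375, lay in an intron 9736 bp downstream of the start of eIF4EHP, with a signal of 99.8 (rank 774). The nearest start of any gene to its summit was that of Syx1A, at 6539 bp. In that region replicate 1 had 51.3 and replicate 2 had 47.3. The other candidate, 24109057 to 24109360, lay 249 bp upstream of the start of eIF4EHP, which faces that of CG18428 at 376 bp. This candidate lies nearer to CG18428, with its summit 127 bp from that gene's start. Its signal was 313, rank 92 of 139701 candidates, with a −log10 IDR of 4.98, and it was also the strongest candidate of the gene in replicate 1 (179, rank 65) and in replicate 2 (132, rank 129). It overlapped no peak in any of the 4 thresholded lists. Of 1848 candidates on the main chromosomes past the IDR threshold, 78 were outside the conservative list, and 9 of these, the eIF4EHP candidate included, had a signal at least as high as it. Why these candidates are outside the thresholded lists was not tested. Per the notes deposited with the files, the thresholded lists were made with 1 more input file than the ranked ones.

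**Figure D2:**
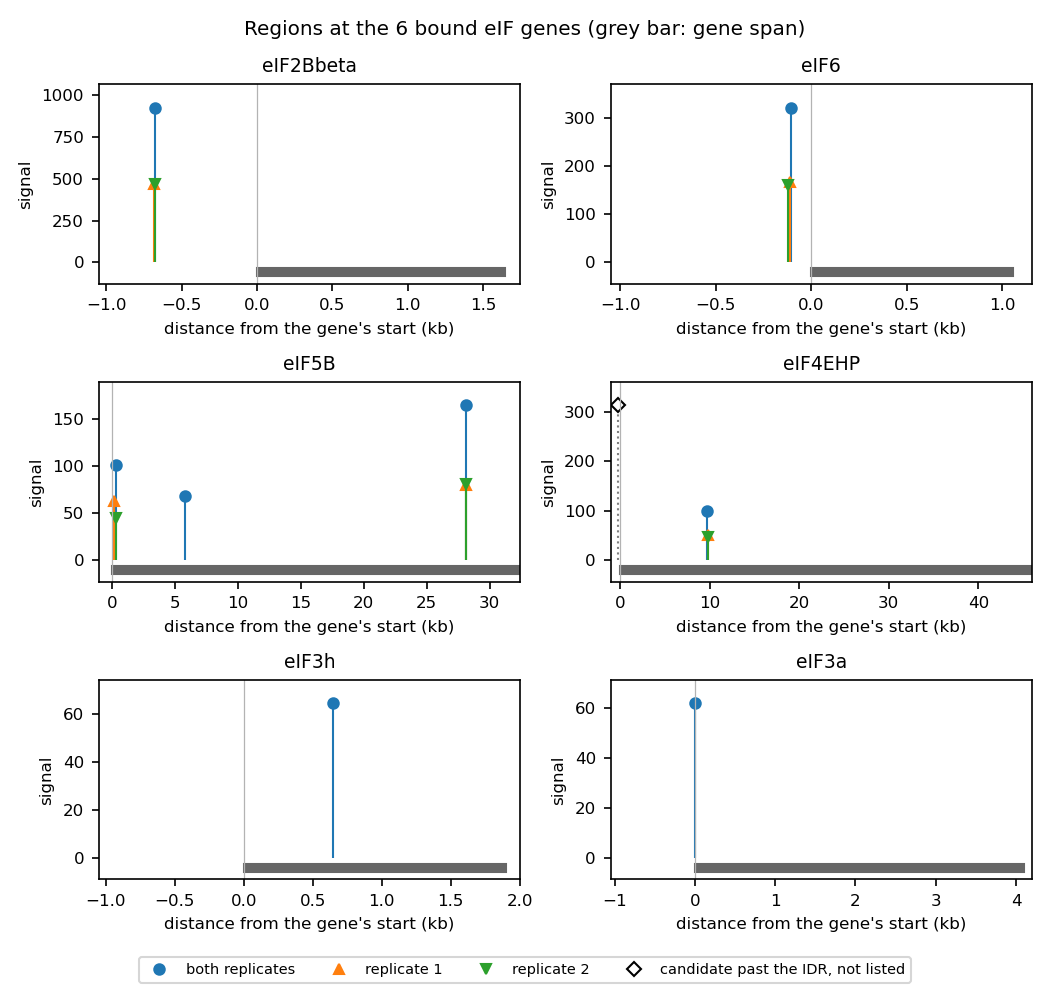
Summits at the 6 bound eIF genes by distance from the gene's start (kb, x axis, positive into the gene) and signal (y axis), in the conservative list and in each replicate's own list, with the gene span as a grey bar and the unlisted eIF4EHP candidate as a diamond; heights compare only within a list. The eIF2Bbeta and eIF6 summits lie upstream of the gene, eIF5B and eIF4EHP hold summits deep in the gene, and eIF3h and eIF3a have none in the replicates' own lists.

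A second member had such an unlisted candidate. eIF4A (FBgn0001942, 2L, 5981764 to 5985909), the gene of the helicase that unwinds the mRNA leader, had a candidate of 56.8 in a coding exon, at 5984263 to 5984566, with a −log10 IDR of 2.2. Its strongest candidates had 28.7 in replicate 1 and 30.8 in replicate 2. So 2 of 44 eIF genes held a candidate past the threshold that the conservative list lacks, against 0.265% of all protein-coding genes. This count was made after the eIF4EHP candidate had been seen. With such candidates added to the list, 7 of 44 eIF genes would be bound (15.9%), and 11.3% of all protein-coding genes.

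Of the 16 eIF3 genes, 2 were bound (12.5%, against 11.2% of all genes), both weakly and neither in a replicate's own list. eIF3a (FBgn0037249, 3R, 4429798 to 4433895), the largest scaffold subunit, had a region at 4433745 to 4434048 of signal 61.9 (rank 1496 of 1739), which peaked 2 bp upstream of its TSS. It faces CG1074, whose start lies 70 bp away and which shares the summit. Its strongest candidate was 35.7 in replicate 1 and 28.7 in replicate 2, with −log10 IDR values of 1.84 and 0.93 against the 2 needed. eIF3h (FBgn0022023, 2L, 5051193 to 5053094) had a region in an intron at 5052294 to 5052597 with a signal of 64.7 (rank 1419), 334 bp from a start of its own and shared with senju. The −log10 IDR of this region was 2.41 in the ranked list that matches the conservative list, and 0.15 in the other ranked list of both replicates. The replicates' candidates there had signals of 31.7 and 34.5, with −log10 IDR values of 0.05 and 1.38. The other 14 eIF3 genes had no conservative region. Of these, 12 had a candidate, from 3.88 at eIF3e (none in replicate 1 and 9.50 in replicate 2) to 38.3 at eIF3m, with 17.7 at eIF3l (22.4 and 11.5 in the replicates), and eIF3i and eIF3j had none when both replicates were ranked together. Of those not named otherwise, eIF3c had 35.2, eIF3b 24.2 and eIF3k 22.1. Among the duplicated subunits the strongest candidates were 33.4 at eIF3d1 and 28.7 at eIF3d2, 38.02 at eIF3f1 and 27.2 at eIF3f2, and 20.2 at eIF3g1 and 22.1 at eIF3g2.

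None of the genes of the factors that find the start codon and carry the initiator tRNA had a conservative region, beside 11.2% of all genes. With so few genes, this does not set them apart from all genes. eIF2alpha and eIF2gamma had no candidate in any of the ranked lists of both replicates, replicate 1 or replicate 2. eIF2beta had one of 24.7. eIF5, whose product triggers GTP hydrolysis by eIF2, had none in these 3 lists. eIF1A had a strongest candidate of 40.2, in a coding exon 7054 bp from its nearest start and 1776 bp from the start of CG14312. In that exon replicate 1 had 18.9 and replicate 2 had 15.5. The strongest candidate of replicate 2 lay elsewhere, in an intron, at 24.5. eIF1 (FBgn0035423) had no candidate in the ranked list that matches the conservative list and none in replicate 1's, with 27.5 in replicate 2's. In the list not marked conservative it had a region of 60.5 on 3L at 3222900 to 3223203, 289 bp upstream of its start and 92 bp from that of RpL28, a ribosomal protein gene on the other strand. Of the factors that can deliver tRNA by other routes, eIF2D had a candidate of 59.4 at 196 bp upstream of its start, with 22.5 in replicate 1 and 39.05 in replicate 2, and eIF2A had one of 38.2. The eIF2D candidate had a −log10 IDR of 1.88 in the ranked list that matches the conservative list and is listed in the one not marked conservative.

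Of the 13 genes of cap binding and unwinding, eIF4EHP was the 1 with a listed region (7.69%, against 11.2% of all genes in the conservative list). eIF4E1, which encodes the main cap-binding protein, and eIF4G1, which encodes the scaffold that links it to eIF4A, had no candidate in these 3 ranked lists, nor had eIF4H1. eIF4B had none in the list of both replicates and 6.03 in replicate 1. The other cap-binding genes ranged from 17.8 at eIF4E6 (14.0 in replicate 1 and none in replicate 2) to 34.7 at eIF4E3, with eIF4E4 at 19.8, eIF4E7 at 21.2 and eIF4E5 at 25.2. eIF4G2, a scaffold gene known from male germ cells, had 48.3, with 27.2 in replicate 1 and 22.7 in replicate 2, and eIF4H2 had 28.1.

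In the ranked list that matches the conservative list, 10 of the 44 eIF genes had no candidate (22.7%), against 15.4% of all protein-coding genes. They were eIF1, eIF2alpha, eIF2gamma, eIF3i, eIF3j, eIF4B, eIF4E1, eIF4G1, eIF4H1 and eIF5. Of these, 7 had none in either replicate's ranked list as well (15.9% of the 44, against 7.91% of all protein-coding genes), eIF4B had one in replicate 1, and eIF1 and eIF3i had one in replicate 2. In the first of these lists each gene lay inside a longer interval without candidates, from 9.8 kb around eIF1 to 65.4 kb around eIF4B and 182.6 kb around eIF4G1 on chromosome 4. eIF2alpha and eIF4H1 shared a single such interval of 25.6 kb on X, 16438195 to 16463826. The other ranked lists hold candidates inside the intervals of eIF1, eIF3i and eIF4B. An absent candidate gives no level, so these genes cannot be called unbound, and what these intervals come from was not tested.

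**Figure D3:**
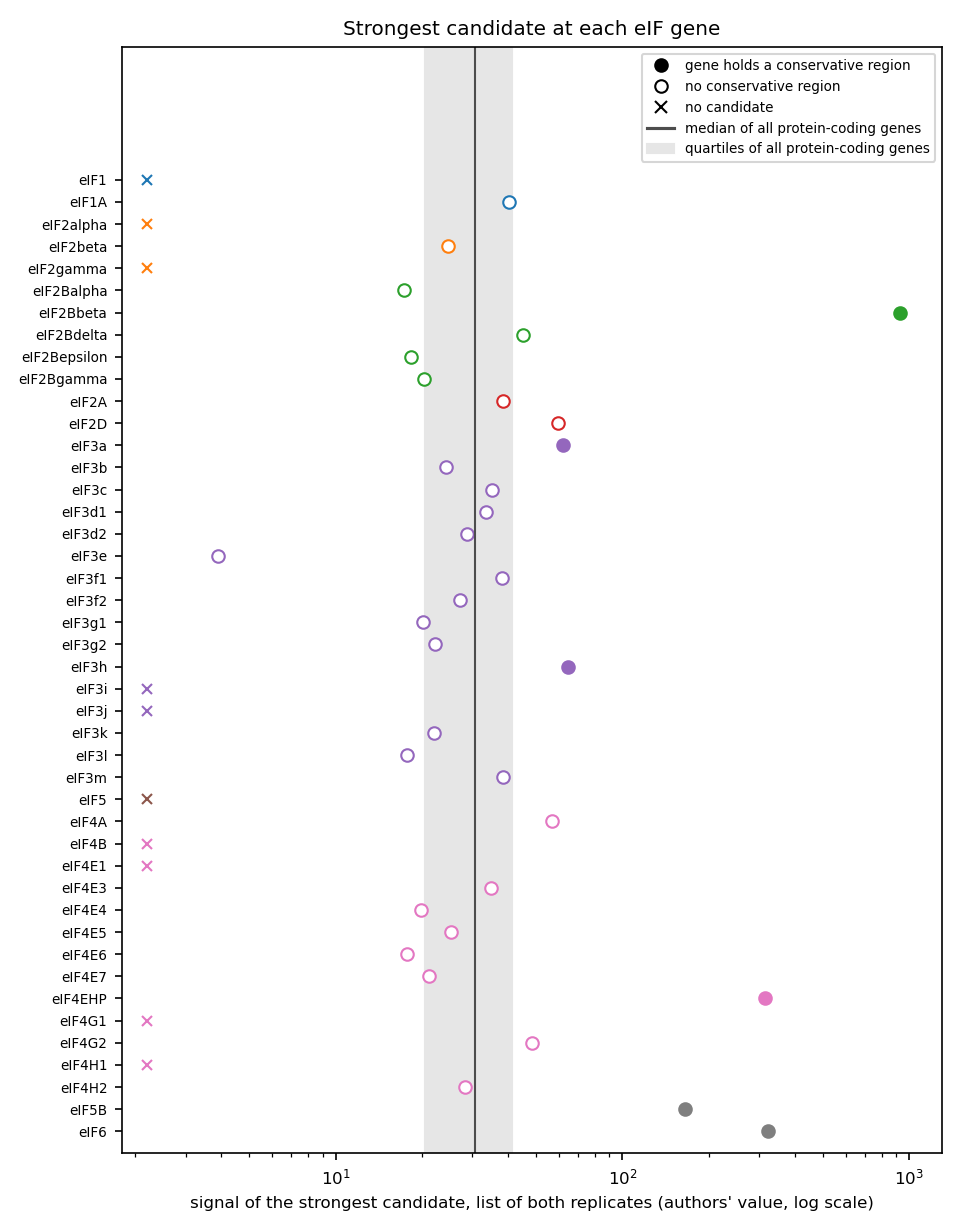
Signal of the strongest candidate at each of the 44 eIF genes in the ranked list of both replicates (x axis, authors' value, log scale), grouped by factor; filled points are genes with a conservative region and crosses genes with no candidate in that list. Of the 44 genes, 17 lie above the median of all genes, 30.5. eIF2Bbeta, eIF6, eIF4EHP (its unlisted candidate) and eIF5B lie far to the right at 165 to 926.

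Over the whole family the strongest candidates were not shifted from those of all genes in a steady direction. With genes lacking a candidate counted lowest, the median was 24.5 in the ranked list of both replicates, against 30.5 for all protein-coding genes. It was 17.1 against 16.5 in replicate 1 and 16.6 against 18.2 in replicate 2, so the direction turned between the replicates. Within 500 bp of an own TSS, where gene length plays no part but genes with several starts have more windows, it was 18.3 against 18.4. Of the 44 genes, 17 lay above the median of all genes, 10 above the upper quartile of 41.3 and 4 above the 90th percentile of 65.4. The median span was 1968 bp for the eIF genes and 2164 bp for all genes, while eIF5B and eIF4EHP, with 32320 and 45884 bp, were the longest members and held 41 and 44 candidates.

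**Figure D4:**
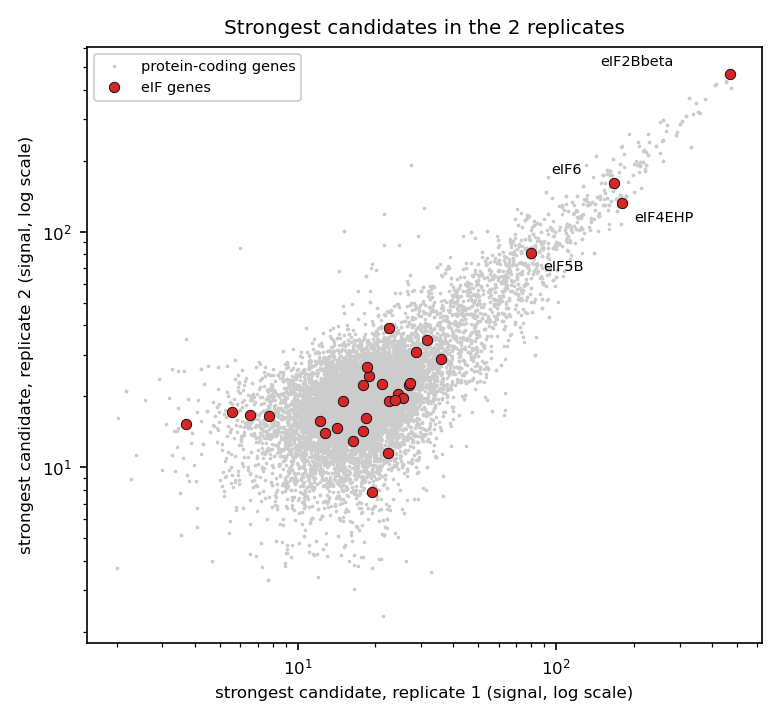
Strongest candidate of each protein-coding gene in replicate 1 (x axis) and replicate 2 (y axis), authors' signal on log scales, with the eIF genes in red. The 4 eIF genes bound in both replicates' own lists lie at the upper end along the line of like values, and the others sit in the cloud of all genes. eIF4EHP is placed by its unlisted candidate (179 and 132), not by its listed region (51.3 and 47.3).

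The replicates gave the members at the top like ranks. Across the 31 eIF genes with a candidate in both replicates, Spearman's rho of the strongest signals was 0.75, and 0.587 across the 11023 such protein-coding genes. In these values eIF4EHP stands with its unlisted candidate, not with its listed region. The points share 2 libraries and are genes, not replicates. For 10 of the 31 the strongest summits of the replicates lay within 100 bp of each other (32.3%, against 31.7% of all such genes), and for the rest the replicates named different places as the strongest. For those 10 the ratio of replicate 1 to replicate 2 ran from 0.392 to 1.35.

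Bound members were found with and without a gene facing them. A protein-coding gene on the other strand started within 1 kb upstream of the outermost start, or overlapping by up to 100 bp, at 20 of the 44 eIF genes. Inner starts were not used, although the eIF3h region was placed by its inner start. Of these 20, 4 were bound (eIF2Bbeta, eIF3a, eIF4EHP and eIF5B, 20%), and of the other 24, 2 were (eIF3h and eIF6, 8.33%). The same shares over all genes were 16.4% of 4947 and 8.3% of 9021. The upstream window of a gene with such a partner also holds the start of the partner, as at eIF2Bbeta, where the region lies at Ugalt.

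The starts of eIF genes held the DRE in a larger share than starts in general, with or without a region. In promoters from 250 bases before to 50 after the gene's start, TATCGATA stood in 12 of 44 (27.3%), against 9.36% of all 13968 promoters, and in 10.7% of the promoters of bound genes. The 12 were eIF1A, eIF2Bbeta, eIF2alpha, eIF2gamma, eIF3a, eIF3c, eIF3f1, eIF3l, eIF4A, eIF4B, eIF4E6 and eIF6. Of these 12, 3 were bound, beside 166 of the 1307 genes with the DRE among all protein-coding genes. At the summits themselves the DRE was rare: it stood within 50 bp of the summit in 1 of the 8 regions at eIF genes, that of eIF3a, and in 0.748% of all conservative regions. The shorter CGATA stood in 27 of 44 promoters (61.4%, against 47.3%) and in 2 of the 8 regions (11.5% of all). These shares are descriptions and were not tested.

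Among the other genes of translation, the elongation and termination list had 3 of 11 bound (27.3%, Wilson interval 9.75 to 56.6%, against the same 11.2%). They were eEF1gamma (179), eEF5 (88.1) and eEF1alpha1 (64.4), all within 500 bp of an own start. eEF1gamma was bound in both replicates' own lists (80.9 and 104.7), as was eEF5 (45.5 and 44.8). eEF2, eEF1beta and eEF1delta had no candidate in the list of both replicates. Of 15 regulators and partners of initiation factors 2 were bound (13.3%), pAbp, the poly(A)-binding protein gene (99.0, intron, 58.9 and 42.6 in the replicates), and Paip2, the gene of an inhibitor of it (69.1, intron). Lk6, a kinase gene of eIF4E, and larp, an RNA-binding protein gene, had strong candidates of 677 (rank 12) and 446 (rank 33) with a −log10 IDR of 5 that no conservative region holds, like that of eIF4EHP. Thor, the gene of the eIF4E-binding inhibitor, had a region of 52.7 in the list not marked conservative and none in the conservative list.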

How the data were processed

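The 8 deposited peak lists are on dm6, per the labels. The authors deposited a signal value for each peak (normalization not stated) and, in ranked lists, the −log10 of the IDR; the sources used here name no aligner or peak caller. Notes deposited with the files say that each list was made from the replicates' alignments and 1 shared further file. All 1770 conservative peaks on the 7 main chromosome arms were in 1 of the 2 ranked lists of both replicates, which was used with it (1757 in the other). Peaks of 1 list that shared 1 bp or more were joined, keeping the highest summit. Genes came from Ensembl release 115 (BDGP6) and bases from the RefSeq copy of Release 6; 0 peaks ended beyond a chromosome. Coordinates are 1-based. Intervals of shares are 95% Wilson intervals. The counting of bound genes was checked on a made-up list, where all 200 planted genes were found.

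The genes, lists and motifs were chosen with earlier results of these data known. Every member is accounted for. Genes with a conservative region are described with their position, signal and nearby starts. For the 5 highest and 5 lowest of the rest that have a candidate, the strongest signals are given, with those of each replicate. Of the listed pathway symbols, gcn1, Impact and Tor had no single match. Python 3.11.15, pandas 2.3.3, numpy 2.4.6 and SciPy 1.17.1 were used. Alternatives covered the list, threshold, window, merging and sharing of summits. Depth is unknown, so no precision could be taken from it.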

Additional observations from a re-analysis of the deposited data

How the results depend on the processing

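Which eIF genes counted as bound depended on the list and the window. eIF5B was bound under all 12 alternatives, eIF4EHP and eIF6 under 10, eIF2Bbeta under 9, and eIF3a and eIF3h under 7. The count of 6 fell to 3 without upstream sequence, at an IDR of at most 0.001, and when a summit counted only for the gene with the nearest TSS (6.82%, against 5.78%, 5.63% and 7.64% of all genes). It was 4 to 4 with either replicate left out (9.09%, against 7.80% and 8.21%) and 4 to 7 under the others. Summits within 500 bp of an own TSS fell from 4 to 2 genes in the stronger 50% of regions and at an IDR of at most 0.001, and were 2 to 2 with either replicate left out (4.55% throughout, against 4.1%, 3.67%, 4.93% and 5.26% of all genes). The genes bound in both replicates fell from 4 to 2 without upstream sequence (4.55%, against 3.06%). The median of the strongest candidates was 24.5, against 30.5 for all genes. It was 24.9 in the other ranked list of both replicates (against 30.7) and 19.3 without upstream sequence (against 26.5). Within 500 bp of a TSS it was 18.3 (against 18.4). It was 16.6 without replicate 1 (against 18.2) and 17.1 without replicate 2 (against 16.5), where signals are on another scale. Adding candidates past the threshold was chosen after seeing the data. No paired analysis was possible because the series has 1 group. With 44 genes and 6 bound, the interval of the share spans 6.4 to 26.7%, and the depth of the libraries is unknown.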

Other observations

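Other motifs in the 44 eIF promoters stood on both sides of the shares over all promoters. GAGAG stood in 7 (15.9%, against 29.7%) and CAGCTG in 4 (9.09%, against 17.6%). CATATG stood in 4 (eIF2Bgamma, eIF3b, eIF4B and eIF4H1; 9.09%, against 7.81%), CACGTG in 3 (6.82%, against 4.2%) and GGTCACAC, a part of the core promoter element known as motif 1, in 6 (13.6%, against 7.69%). TATAAA stood in 20 (45.5%, against 45.8%). The polypyrimidine run CTCTTTC, sought on the sense strand alone, stood in 0 of 44, against 2.63%. The median G and C content was 36.3% in eIF promoters and 38% in all.

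The sequence at the unlisted eIF4EHP candidate has 14.9% G and C, and that at the unlisted eIF4A candidate 59.4%, against a median of 31.7% in the windows of 50 bp to each side of the conservative summits. A TATAAA match stood in the eIF6 window as well, and in 22.3% of all conservative windows.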
